A study of Homo sapiens with 9 samples.

Results

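The apoptosis machinery considered here is a set of 33 genes built around PAWR, the gene of the pro-apoptotic protein Par-4, measured in recipient MDA-MB-231 breast cancer cells incubated with small extracellular vesicles or without. The genes were taken by symbol from a gene-level table of 60719 Ensembl genes, and all 33 were found as 1 row each. Of the 33, 20 were put on the pro-death side and 9 on the pro-survival side, while CASP4, TNFRSF1A, TRADD and RIPK1, which can serve inflammation, survival or death, were put on neither. Recipient cells, wild type per the labels, were kept for 72 h in what the labels call 5% exo-free medium, in 3 groups of 3 libraries. The TIS sEV group received small extracellular vesicles (sEV) from MDA-MB-231 donors in therapy-induced senescence, that is, after 72 h in 100 ng/ml nocodazole, a microtubule poison, and a further 72 h without it. In the Cont sEV group the vesicles came from donors that had been given DMSO, the solvent, and released in the same way. The No sEV group received no vesicles. Donors and recipients were the same cell line, so the comparisons hold for MDA-MB-231 alone, and senescence of the donors and any further action of nocodazole on them cannot be told apart.

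Apoptosis is run by caspases, proteases that are made as inactive precursors. In the mitochondrial route, BH3-only proteins block the anti-apoptotic members of the BCL-2 family or activate the effectors BAK1 and BAX, the outer mitochondrial membrane opens, and released cytochrome c assembles APAF1 and caspase-9 into the apoptosome. In the receptor route, ligands such as TRAIL recruit FADD and caspase-8, which CFLAR opposes, and IAP proteins restrain caspases further down. Par-4 is a leucine zipper protein that binds WT1 and atypical protein kinase C, and its secreted form binds HSPA5 (GRP78) at the cell surface; it was first found in dying prostate cells.

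The promoters of the 4 members whose TIS sEV libraries lay apart from all other libraries are shown to set PAWR, the sole member that passed the test, beside the 3 others that lay apart without passing it. Each window runs 5′ to 3′ from 250 bases before to 50 bases after a RefSeq transcript start on GRCh38.p14, and is the first listed for its gene. Capitals mark the GC box GGGCGG on either strand, which Sp1-type factors bind, and the NF-kB consensus.

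PAWR, chr12:79690915-79691214, minus strand: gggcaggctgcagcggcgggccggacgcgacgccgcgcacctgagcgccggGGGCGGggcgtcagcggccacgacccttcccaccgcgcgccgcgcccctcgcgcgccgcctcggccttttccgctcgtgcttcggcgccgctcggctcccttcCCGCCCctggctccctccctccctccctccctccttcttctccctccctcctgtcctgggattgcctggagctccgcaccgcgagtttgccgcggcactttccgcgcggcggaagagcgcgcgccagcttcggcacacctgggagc
CASP4, chr11:104968525-104968824, minus strand: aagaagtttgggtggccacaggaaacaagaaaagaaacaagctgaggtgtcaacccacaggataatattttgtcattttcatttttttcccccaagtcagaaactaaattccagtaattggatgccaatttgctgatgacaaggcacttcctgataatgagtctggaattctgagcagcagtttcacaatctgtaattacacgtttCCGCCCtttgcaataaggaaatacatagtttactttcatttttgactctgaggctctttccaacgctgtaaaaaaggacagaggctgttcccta
BCL2A1, chr15:79971147-79971446, minus strand: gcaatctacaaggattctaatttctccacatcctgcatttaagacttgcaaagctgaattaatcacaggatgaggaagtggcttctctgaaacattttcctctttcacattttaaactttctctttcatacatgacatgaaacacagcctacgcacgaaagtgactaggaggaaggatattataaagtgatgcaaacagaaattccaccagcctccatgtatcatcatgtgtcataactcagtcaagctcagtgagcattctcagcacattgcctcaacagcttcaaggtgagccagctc
BMF, chr15:40108830-40109129, minus strand: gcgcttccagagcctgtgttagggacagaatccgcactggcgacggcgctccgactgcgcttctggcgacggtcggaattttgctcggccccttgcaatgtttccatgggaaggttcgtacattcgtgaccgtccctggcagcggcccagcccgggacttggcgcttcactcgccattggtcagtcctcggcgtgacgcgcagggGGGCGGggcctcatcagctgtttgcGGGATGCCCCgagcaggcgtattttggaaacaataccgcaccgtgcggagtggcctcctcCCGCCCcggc

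The PAWR window held 2 GC boxes, that of BMF 2 GC boxes and 1 NF-kB match, that of CASP4 1 GC box, and that of BCL2A1 0 matches. GC content was 76.3% in the PAWR window, 65.0% in that of BMF, 41.0% in that of BCL2A1 and 39.7% in that of CASP4, against a median of 58.7% over all 35116 windows. PAWR and BMF each have 2 windows in the table, and the second PAWR window held 3 GC boxes. A GC box was found in 45.0% of all windows and an NF-kB match in 5.91%. Both strands were also searched for the AP-1 motif TGANTCA, the TEAD motif GGAATG and the WT1 and EGR1 type motif GCGNGGGCG, which 7.71%, 14.0% and 9.43% of all windows hold, and 0 matches were found in any window of these 4 genes. A GC box can overlap a WT1 and EGR1 type match. Windows were found for 27 of the 33 members, and together they have 51 windows, 35 of which held a GC box, in 21 of the 27 genes. BIRC3, BMF and CFLAR had an NF-kB match, in 3 of the 51 windows, against 5.91% of all windows. CASP8, CFLAR and FADD had an AP-1 match, in 4 of the 51 windows, against 7.71%. The WT1 and EGR1 type motif was in 7 of the 51 windows, against 9.43%, and the TEAD motif in 2, against 14.0%.

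Levels are given as TPM, a relative abundance corrected for transcript length and scaled to a sum of 1000000 per library, so genes can be compared within a library but the depth of sequencing is unknown. Of the markers used to check the line, VIM lay between 2206 and 2299 TPM and CD44 between 428 and 514 TPM, while ESR1 stayed at or below 0.220 TPM, PGR at or below 0.0502 TPM and CDH1 at or below 0.577 TPM. ERBB2, listed as low in this line, was at 26.2 to 30.7 TPM. Of the markers of other cells, CD68 was at 146 to 160 TPM, while PTPRC, PECAM1, VWF and ALB stayed at or below 2.16 TPM. In bulk RNA, fewer cells with a transcript and less of it per cell cannot be told apart. Nothing in the labels ties the replicates to separate cultures, so the p-values below measure only the spread between these libraries, which may be technical. TPM is also compositional, and rows of the mitochondrial genome took 2.07% to 2.52% of the total in TIS sEV libraries, 2.58% to 3.39% in Cont sEV libraries and 2.47% to 2.92% in No sEV libraries.

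All 33 members reached 1 TPM in 3 or more libraries and so were tested, and their mean levels spanned 161-fold. Of the 33, 6 averaged 100 TPM or more, 20 between 10 and 100 TPM, and 7 under 10 TPM. The pro-survival gene BCL2L1, whose main product is BCL-xL, was the highest at 309 TPM over the 9 libraries, followed by CASP4 at 197, CYCS (cytochrome c) at 164, MCL1 at 150, BAD at 121 and BIRC3 at 107 TPM. PAWR was ninth at 89.3 TPM. At the low end were CASP10 at 3.30, BCL2 at 2.66 and BIK at 1.92 TPM. Of the 32 pairs of neighbours in this order, 23 had overlapping ranges over the 9 libraries. Ranges pooled over libraries do not order such a pair, though values within each library can. CYCS and MCL1 are such a pair, and CYCS was the higher in each of the 9 libraries. BCL2L1, CASP4 and CYCS did not overlap with one another, nor did MCL1 with BAD. Within groups the members varied little: the coefficient of variation had a median of 5.6%, from 2.03% for BAK1 to 23.0% for BIK.

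**Figure D1:**
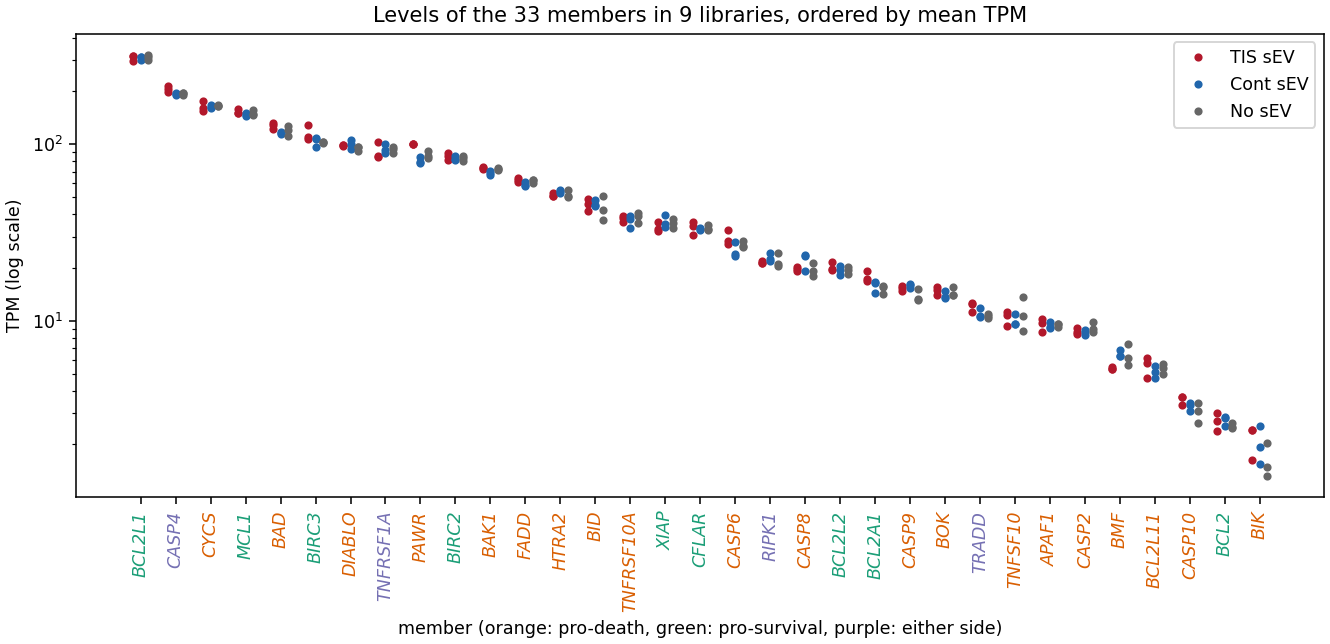
TPM (log axis) of each of the 33 members in the 9 libraries, with members ordered by mean level, points coloured by group and names coloured by side. The spread between members, from about 1.92 TPM for BIK to 309 TPM for BCL2L1, is far wider than any spread between groups.

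Among the listed members of the BCL-2 family the transcript pool was dominated by a few genes. BCL2L1 supplied 59.4% to 64.0% of the summed TPM of the 5 anti-apoptotic members and MCL1 a median of 30.0%, while BCL2, the founding member, supplied 0.477% to 0.596%. Among the 7 listed pro-apoptotic members BAD supplied 43.8% to 47.2% and the effector BAK1 26.2% to 28.6%. BID, which caspase-8 cleaves to link both routes, supplied 15.1% to 18.8%. Pro-apoptotic family genes outside the list are not in this sum. Of these, BAX, PMAIP1 and BBC3 averaged 187, 183 and 21.2 TPM with TIS sEV, so the shares hold for the listed genes alone. CASP4, an inflammatory caspase that senses bacterial lipopolysaccharide, made up 71.7% to 73.5% of the summed TPM of the 6 caspases listed.

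PAWR had its highest values with TIS sEV, and was the sole member to pass the test in any of the 3 comparisons, that of TIS sEV with Cont sEV. Its level was 99.7, 100.3 and 99.6 TPM in the TIS sEV libraries, 85.0, 79.7 and 78.6 TPM in the Cont sEV libraries, and 91.8, 85.5 and 83.6 TPM in the No sEV libraries. The 3 TIS sEV libraries were nearly equal to each other and lay above the other 6, whereas the Cont sEV and No sEV libraries overlapped. PAWR averaged 99.8 ± 0.368 TPM with TIS sEV, 81.1 ± 3.40 TPM with Cont sEV and 87.0 ± 4.30 TPM with No sEV (SD, n = 3 each). Between TIS sEV and Cont sEV it rose by 0.30 on the log2(TPM + 1) scale (SE 0.04, 95% confidence interval 0.20 to 0.39, limma with the Benjamini-Hochberg adjustment made over all genes, adjusted p = 0.0387), a 1.23-fold difference on that scale that ranked 13th by p among 13879 genes. Between TIS sEV and No sEV the difference was 0.20 (interval 0.10 to 0.29, limma, adjusted p = 0.298). For Cont sEV vs No sEV it was -0.10 (interval -0.19 to -0.01, limma, adjusted p = 0.807). Neither of these differences passed.

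The call of the PAWR difference between TIS sEV and Cont sEV depended on the setting. Over 20 alternative settings the log2 fold change of PAWR lay between 0.27 and 0.33, but 7 of the 20 passed, with adjusted p-values from 0.0232 to 0.213 (limma). Several settings left both group means unchanged, so the fold change could not move from 0.297. These were the other filters, the replicate block, no variance trend, only the libraries compared and each No sEV library left out. With 1 library left out the PAWR difference passed without Cont sEV replicate 1 (adjusted p = 0.0448) or No sEV replicate 1 (adjusted p = 0.0415). The call was lost without TIS sEV replicate 1 (adjusted p = 0.125), TIS sEV replicate 2 (adjusted p = 0.122), TIS sEV replicate 3 (adjusted p = 0.174), Cont sEV replicate 2 (adjusted p = 0.213), Cont sEV replicate 3 (adjusted p = 0.202), No sEV replicate 2 (adjusted p = 0.0704) and No sEV replicate 3 (adjusted p = 0.0556). Leaving the mitochondrially encoded genes out, the fold change was 0.29 (adjusted p = 0.0421), and with libraries rescaled by median ratios 0.28 (adjusted p = 0.0637). PAWR (ENSG00000177425.11) is annotated in GENCODE 29 as a protein-coding gene on the minus strand of GRCh38 chromosome 12, from 79574979 to 79691097. Of the 31-base words in its transcripts, 6.25% also occur in transcripts of other genes.

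In TIS sEV vs Cont sEV, 1 of 33 members, PAWR, passed, where 0.0937% of all tested genes did. PAWR gives the list its name, and the members were chosen with earlier results of these data known. This share therefore does not test the list, and without PAWR 0 of 32 members passed. In TIS sEV vs No sEV 0 of 33 passed (0.00721% of all tested genes), in Cont sEV vs No sEV 0 of 33 (0% of all tested genes), and in limma's F test over the 3 groups 0 of 33 (0.0216% of all tested genes; PAWR, adjusted p = 0.108). At an unadjusted p under 0.05 the counts were 7 members (21.2%, against 10% of all tested genes) in TIS sEV vs Cont sEV, 6 (18.2%, against 7.97%) in TIS sEV vs No sEV and 2 (6.06%, against 6.03%) in Cont sEV vs No sEV. The 7 were PAWR, BAD, CASP4, BAK1, CASP6 and FADD, all with higher means in TIS sEV, and BMF, with a lower mean. The 6 against No sEV were PAWR, the pro-survival genes BCL2A1 and BIRC3, CASP4 and TRADD, all higher, and BMF, lower. Over all tested genes at this p, 981 of 1388 were higher in TIS sEV vs Cont sEV and 879 of 1106 in TIS sEV vs No sEV. In Cont sEV vs No sEV the share of members, PAWR included, sat at that of all tested genes. Because of how the members were chosen, none of these 3 shares tests the list. Without PAWR the counts in the 3 comparisons, in the order above, were 6 of 32 (18.8%), 5 of 32 (15.6%) and 1 of 32 (3.12%). The median log2 fold change over the members was 0.04 against 0.02 over all tested genes in TIS sEV vs Cont sEV, 0.03 against 0.03 in TIS sEV vs No sEV, and 0.00414 against 0.01 in Cont sEV vs No sEV. The comparisons with TIS sEV share those 3 libraries, and those with No sEV share theirs, so their counts are not independent.

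**Figure D2:**
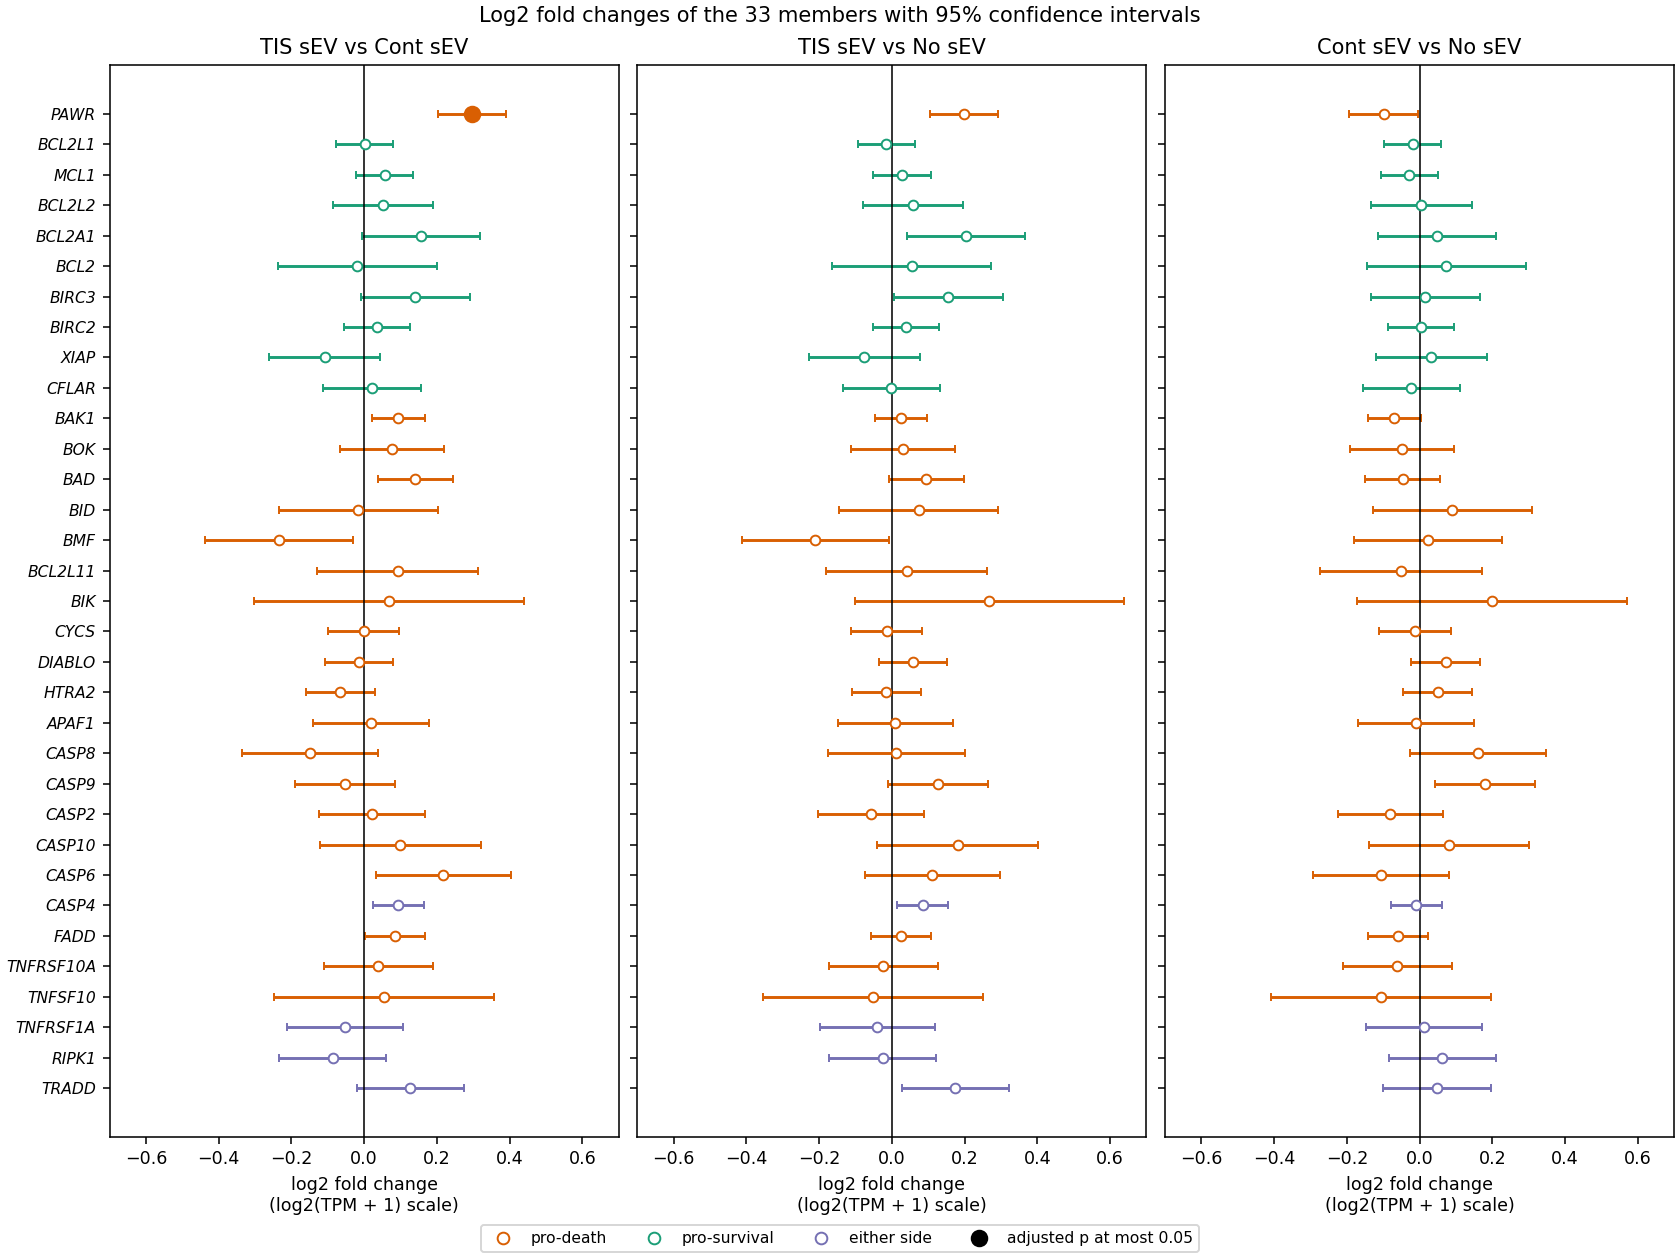
Log2 fold changes on the log2(TPM + 1) scale (horizontal axes) with 95% confidence intervals for the 33 members in the 3 comparisons, grouped by role, each with 3 libraries a group. The filled point marks PAWR in TIS sEV vs Cont sEV at 0.30, the single value past the threshold, and most other intervals include 0.

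Besides PAWR, 3 members had TIS sEV libraries that all lay above or all below the other 6 libraries, namely CASP4, BCL2A1 and BMF. That made 4 of 33 members (12.1%), where 5.09% of all tested genes were apart in this way. CASP4 was at 205.9, 213.0 and 196.3 TPM with TIS sEV, 191.7, 190.5 and 193.7 TPM with Cont sEV and 194.8, 194.7 and 190.2 TPM with No sEV. The lowest TIS sEV library was thus close to the highest of the others. BCL2A1, an anti-apoptotic BCL-2 family gene known as an NF-kB target, was at 17.2, 19.1 and 16.7 TPM with TIS sEV, 16.6, 16.3 and 14.4 TPM with Cont sEV and 14.2, 15.7 and 15.6 TPM with No sEV. BMF, a BH3-only gene whose product is tethered to the cytoskeleton, lay on the lower side, at 5.33, 5.49 and 5.31 TPM with TIS sEV, 6.32, 6.82 and 6.36 TPM with Cont sEV and 5.63, 7.41 and 6.20 TPM with No sEV. None of these 3 passed the test. For CASP4 the log2 fold change was 0.09 against Cont sEV (limma, adjusted p = 0.366) and 0.08 against No sEV (adjusted p = 0.582). BCL2A1 gave 0.16 (adjusted p = 0.519) and 0.20 (adjusted p = 0.558), and BMF, singled out after its values were seen, -0.23 (adjusted p = 0.437) and -0.21 (adjusted p = 0.621). After median-ratio rescaling or quantile normalization, PAWR and BMF still lay apart from the other 6 libraries while CASP4 and BCL2A1 did not, which left 2 of 33 members (6.06%) against 4.18% and 4.26% of all tested genes. Both this count and the 4 of 33 include PAWR, which gives the list its name. Of the other 32 members only BMF lay apart after either rescaling. The members were chosen with earlier results of these data known, so these shares do not test the list.

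**Figure D3:**
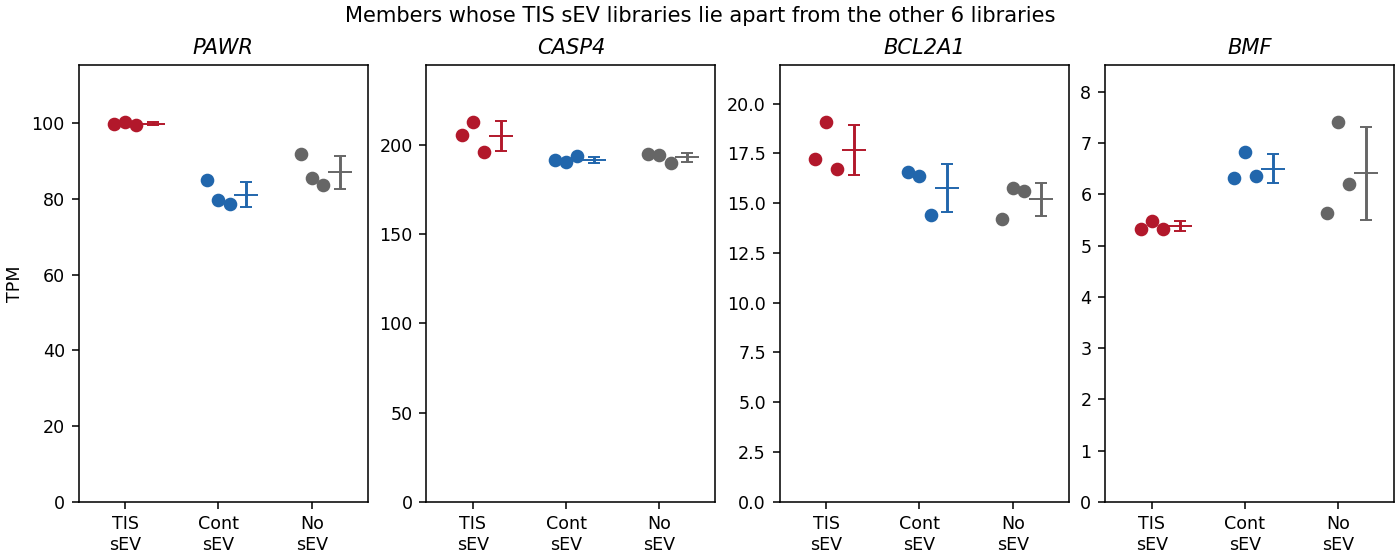
TPM of PAWR, CASP4, BCL2A1 and BMF in each library (points, replicates 1 to 3 from left to right) with the group mean and SD (bars, n = 3), on axes that start at 0. The TIS sEV libraries of PAWR lie between 99.6 and 100.3 TPM, above the highest other library at 91.8 TPM.

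On GRCh38, per GENCODE 29, all 3 are protein-coding genes on the minus strand. CASP4 (ENSG00000196954.14) spans chromosome 11 from 104942866 to 104969436, BCL2A1 (ENSG00000140379.9) chromosome 15 from 79960889 to 79971446, and BMF (ENSG00000104081.14) chromosome 15 from 40087890 to 40108892. Of the 31-base words of CASP4, 1.69% occur in transcripts of other genes, as do 9.84% of those of BCL2A1, all in ST20, and 7.54% of those of BMF, mostly in its antisense gene BMF-AS1.

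Of the pro-death members of the BCL-2 family, BAD and BAK1 came next to PAWR by p in TIS sEV vs Cont sEV, without passing. BAD, a BH3-only gene whose product growth factor signalling holds inactive by phosphorylation, was at 129.0, 122.4 and 131.4 TPM with TIS sEV, 115.0, 117.4 and 114.5 TPM with Cont sEV and 127.2, 119.8 and 111.8 TPM with No sEV. The TIS sEV and Cont sEV libraries did not overlap, whereas the No sEV libraries overlapped both. After median-ratio rescaling the TIS sEV and Cont sEV libraries of BAD overlapped, though after quantile normalization they did not. Its log2 fold change was 0.14 against Cont sEV (interval 0.04 to 0.24, limma, adjusted p = 0.350) and 0.09 against No sEV (adjusted p = 0.652). BAK1, which forms the pore in the outer mitochondrial membrane, was at 74.7, 72.1 and 73.6 TPM with TIS sEV, 68.6, 67.0 and 70.7 TPM with Cont sEV and 73.3, 72.3 and 71.0 TPM with No sEV. Here the Cont sEV libraries lay below all others, with a log2 fold change of 0.09 in TIS sEV vs Cont sEV (interval 0.02 to 0.17, limma, adjusted p = 0.372) and -0.07 in Cont sEV vs No sEV (adjusted p = 0.807). BAK1 was the 1 member of 33 (3.03%) with Cont sEV libraries apart from the other 6, against 3.57% of all tested genes. After quantile normalization it did not lie apart in this way. The effector relative BOK averaged 14.8 TPM with TIS sEV, 14.0 TPM with Cont sEV and 14.5 TPM with No sEV. BID and BCL2L11 (BIM), both BH3-only activators, had log2 fold changes of -0.02 and 0.09 in TIS sEV vs Cont sEV, with groups that overlapped. BIK was too low and variable to be informative, with a log2 interval of -0.30 to 0.44 in TIS sEV vs Cont sEV.

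Among the pro-survival members, 0 of 9 passed in any comparison. BCL2L1 was at 313.6, 295.9 and 314.0 TPM with TIS sEV, 310.8, 298.1 and 313.1 TPM with Cont sEV and 321.4, 300.6 and 311.9 TPM with No sEV. Replicate 2 was the lowest library in each group. Its log2 fold change in TIS sEV vs Cont sEV was 0.00205, with an interval of -0.08 to 0.08, so a change as large as that of PAWR lay outside it. MCL1, a short-lived anti-apoptotic protein's gene, was at 150.5, 159.1 and 149.8 TPM with TIS sEV, 150.1, 146.6 and 144.8 TPM with Cont sEV and 145.9, 148.4 and 156.1 TPM with No sEV, and its groups overlapped. The interval of MCL1 in TIS sEV vs Cont sEV ran from -0.02 to 0.14 (limma, adjusted p = 0.646). BCL2 and BCL2L2 (BCL-w) had log2 fold changes of -0.02 and 0.05 in the same comparison.

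The IAP genes, which restrain caspases, and CFLAR, which opposes caspase-8 at the receptor, showed no called difference either. BIRC3 (cIAP2), an NF-kB target singled out after its values were seen, was at 107.2, 128.5 and 109.1 TPM with TIS sEV, 109.0, 96.5 and 106.5 TPM with Cont sEV and 103.1, 103.4 and 101.8 TPM with No sEV. TIS sEV replicate 2 stood above all others there, and the TIS sEV and Cont sEV libraries overlapped. Its log2 fold change was 0.14 against Cont sEV (limma, adjusted p = 0.533) and 0.15 against No sEV (adjusted p = 0.621). BIRC2 (cIAP1) had 0.04, XIAP, the direct inhibitor of caspases, -0.11, and CFLAR (FLIP) 0.02 against Cont sEV. Of the 31-base words of CFLAR, 23.4% also occur in transcripts of other genes, and of those of BCL2L1 39.6% occur in ABALON. The shares were 18.5% for BAD, 18.0% for BAK1 and 22.1% for BCL2L2. How far such sharing affects the values was not measured.

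Of the caspases and apoptosome genes, 0 of 10 passed in any comparison. CYCS was at 154.6, 176.4 and 159.9 TPM with TIS sEV, 167.2, 162.4 and 161.2 TPM with Cont sEV and 164.0, 166.8 and 164.1 TPM with No sEV. The TIS sEV libraries included both the highest and the lowest value of the 9. Its log2 fold change was -0.00150 in TIS sEV vs Cont sEV (interval -0.10 to 0.10, limma, adjusted p = 0.996). APAF1 and the IAP antagonists DIABLO (SMAC) and HTRA2 had log2 fold changes of 0.02, -0.01 and -0.07 in the same comparison, with DIABLO sharing 25.0% and HTRA2 30.7% of their 31-base words with other genes. CASP9, the initiator in the apoptosome, was at 15.3, 16.0 and 16.1 TPM with Cont sEV and 13.1, 13.4 and 15.1 TPM with No sEV, and its TIS sEV libraries lay between 14.7 and 15.7 TPM. That gave CASP9 the smallest p of the members in Cont sEV vs No sEV (log2 fold change 0.18, interval 0.04 to 0.32, limma, adjusted p = 0.789), without a call. CASP8, the initiator at death receptors, was at 19.1, 19.6 and 20.1 TPM with TIS sEV, 23.1, 19.0 and 23.6 TPM with Cont sEV and 18.0, 19.1 and 21.2 TPM with No sEV. Its difference was -0.15 in TIS sEV vs Cont sEV (limma, adjusted p = 0.604) and 0.16 in Cont sEV vs No sEV (adjusted p = 0.826), and Cont sEV replicate 2 lay apart from the other Cont sEV libraries. CASP6, an executioner caspase, averaged 29.3 ± 3.00 TPM with TIS sEV, 25.1 ± 2.59 TPM with Cont sEV and 27.0 ± 1.13 TPM with No sEV (SD, n = 3 each), with a log2 fold change of 0.22 in TIS sEV vs Cont sEV (limma, adjusted p = 0.428). CASP2 and CASP10 had 0.02 and 0.10.

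On the receptor side, the ligand gene TNFSF10 (TRAIL) ranged from 9.32 to 11.2 TPM with TIS sEV, from 9.56 to 10.9 TPM with Cont sEV and from 8.70 to 13.7 TPM with No sEV. Its receptor gene TNFRSF10A (DR4) averaged 37.8 TPM with TIS sEV, 36.9 TPM with Cont sEV and 38.5 TPM with No sEV. FADD, the adaptor that brings caspase-8 to these receptors, was at 64.6, 61.2 and 63.0 TPM with TIS sEV, 58.8, 61.1 and 57.9 TPM with Cont sEV and 62.5, 63.0 and 60.0 TPM with No sEV. The FADD libraries of TIS sEV lay just above those of Cont sEV (log2 fold change 0.09, limma, adjusted p = 0.480), but 52.6% of its 31-base words also occur in AP000879.1. These FADD libraries overlapped after median-ratio rescaling, after quantile normalization and with mitochondrially encoded genes left out. In the TNF receptor 1 arm, which signals through NF-kB as well as death, the adaptor gene TRADD was at 12.5, 11.3 and 12.7 TPM with TIS sEV, 11.8, 10.7 and 10.5 TPM with Cont sEV and 10.9, 10.6 and 10.4 TPM with No sEV. TIS sEV libraries lay above those of No sEV (log2 fold change 0.17, limma, adjusted p = 0.585) and overlapped those of Cont sEV. The receptor gene TNFRSF1A and the kinase gene RIPK1 had log2 fold changes of -0.05 and -0.09 in TIS sEV vs Cont sEV.

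Counting groups that do not overlap, 8 of 33 members (24.2%) were apart in TIS sEV vs Cont sEV, where 15.4% of all tested genes were: PAWR, BAD, BAK1, BCL2A1, CASP4 and FADD above, BMF and RIPK1 below. In TIS sEV vs No sEV 7 members (21.2%, against 14.1% of all tested genes) were apart, with PAWR, BCL2A1, BIRC3, CASP4, DIABLO and TRADD above and BMF below. Without PAWR, 7 of 32 members were apart against Cont sEV and 6 of 32 against No sEV. In Cont sEV vs No sEV there were 2 (6.06%, against 11.2%), CASP9 above and BAK1 below. Before any rescaling, 1512 of the 2133 tested genes apart in TIS sEV vs Cont sEV lay above, so the higher side led among all genes too. After median-ratio rescaling the counts were 6 (18.2%, against 14.8% of all tested genes) in TIS sEV vs Cont sEV, 4 (12.1%, against 11.6%) in TIS sEV vs No sEV and 1 (3.03%, against 11.9%) in Cont sEV vs No sEV, so that the second sat near its background. The 6 were BAK1, CASP4 and PAWR above and BMF, HTRA2 and RIPK1 below, while BAD, BCL2A1 and FADD no longer lay apart. TIS sEV replicate 2 was the highest of the 9 libraries for 11 of 33 members (33.3%) and for 20.6% of all tested genes, and Cont sEV replicate 2 was the highest for 0 members and for 6.04% of all tested genes. The counts were not recomputed with a library left out, so the part of these libraries in them was not tested.

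The balance of the pro-death and pro-survival sides did not separate the 3 groups. Comparing TIS sEV with Cont sEV, the 20 pro-death genes had 13 higher and 7 lower means, their median difference being 0.05 (log2). The 9 pro-survival genes had 7 higher and 2 lower and a median of 0.04, against 0.02 over all tested genes. Of all tested genes, 8278 had higher and 5601 lower means. In TIS sEV vs No sEV the medians were 0.03 and 0.04, against 0.03 over all tested genes, and in Cont sEV vs No sEV -0.03 and 0.00516, against 0.01. Per library, the mean log2(TPM + 1) of the pro-death members minus that of the pro-survival members was -0.83, -0.84 and -0.88 for TIS sEV, -0.89, -0.85 and -0.82 for Cont sEV and -0.82, -0.88 and -0.84 for No sEV. These differences overlapped between all groups, with means of -0.85 ± 0.03 for TIS sEV, -0.85 ± 0.04 for Cont sEV and -0.85 ± 0.03 for No sEV (SD, n = 3 each). The summed TPM of the 5 listed anti-apoptotic BCL-2 family genes over that of the 7 listed pro-apoptotic ones was 1.83 ± 0.0480 for TIS sEV, 1.91 ± 0.0336 for Cont sEV and 1.90 ± 0.127 for No sEV (SD, n = 3 each). The 7 leave out BAX, PMAIP1 and BBC3, which averaged 187, 183 and 21.2 TPM with TIS sEV. The ratio therefore does not give the balance of the whole family. The ratio ranged from 1.79 to 1.88 with TIS sEV, just below the range of 1.88 to 1.95 with Cont sEV, and overlapped that of 1.80 to 2.04 with No sEV. PAWR over BCL2L1, the highest of the 9 pro-survival members, was 0.318, 0.339 and 0.317 for TIS sEV, 0.273, 0.267 and 0.251 for Cont sEV and 0.286, 0.285 and 0.268 for No sEV. That ratio is free of the scale of a library, and its TIS sEV values lay above the other 6. BCL2L1 differed little between the groups, so the ratio mostly restates the PAWR values and adds no separate evidence on the balance.

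**Figure D4:**
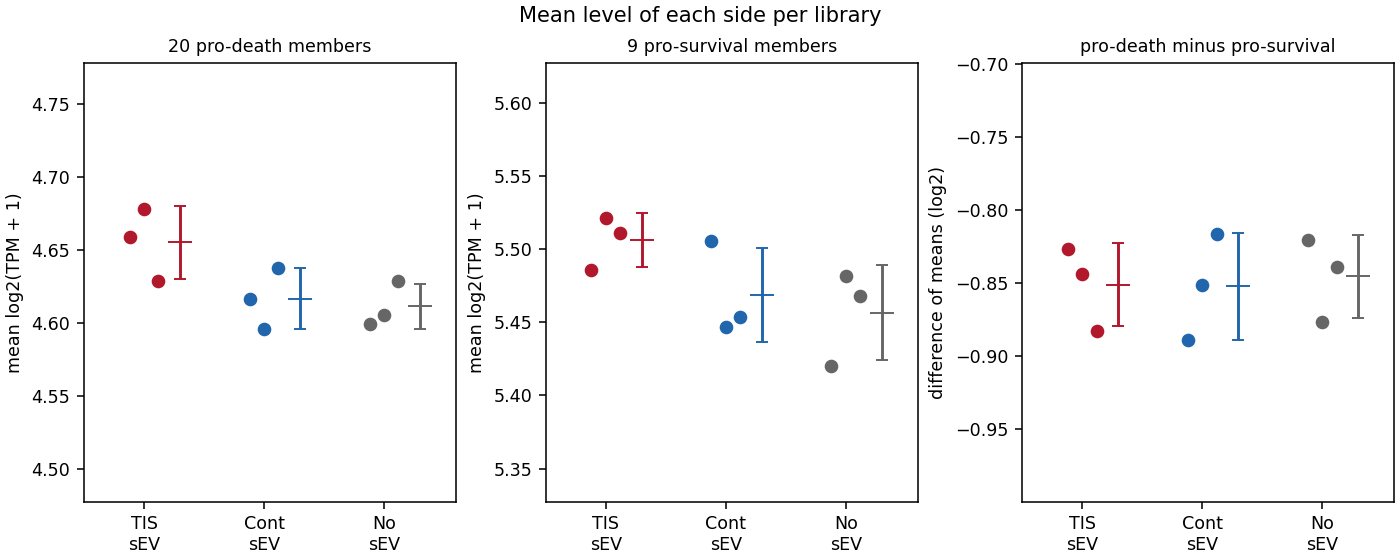
Mean log2(TPM + 1) of the 20 pro-death members, of the 9 pro-survival members, and their difference, in each library (points, replicates 1 to 3 from left to right) with the group mean and SD (bars, n = 3). The vertical axes do not start at 0; the difference lies between -0.89 and -0.82 in all 9 libraries with no separation of the groups.

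Other genes of the pathway were read from 4 lists of 77 genes, of which 0 passed in any comparison (limma). Of 14 partners and regulators of PAWR, 13 were tested, of which 10 had higher and 3 lower means, with a median difference of 0.05 (log2) in TIS sEV vs Cont sEV, against 0.02 over all tested genes. Their smallest p belonged to the kinase gene AKT1, at 121 ± 11.1 TPM with TIS sEV against 107 ± 1.48 TPM with Cont sEV (adjusted p = 0.413), and DAPK3, a kinase that Par-4 binds, at 114 ± 1.07 against 109 ± 0.865 TPM (adjusted p = 0.519). HSPA5, the chaperone that binds secreted Par-4, was at 2263 ± 24.5 TPM with TIS sEV and 2187 ± 28.7 TPM with No sEV (log2 fold change 0.05, adjusted p = 0.589), and AATF at 133 ± 2.50 and 126 ± 3.66 TPM (adjusted p = 0.628). Of 30 other death machinery genes, 23 were tested, with 18 higher and 5 lower and a median of 0.03 in TIS sEV vs Cont sEV. Against No sEV, the BH3-only gene PMAIP1 (NOXA) was at 183 ± 8.57 TPM with TIS sEV and 165 ± 1.29 TPM with No sEV (adjusted p = 0.469), and AIFM1, a mitochondrial flavoprotein gene, at 59.6 ± 0.558 and 55.9 ± 0.761 TPM (adjusted p = 0.539). Of 23 other survival genes, 21 were tested, with 12 higher and 9 lower and a median of 0.01, BAG4, at 8.47 ± 0.338 TPM with TIS sEV against 7.40 ± 0.409 TPM with Cont sEV (adjusted p = 0.433), and the decoy receptor gene TNFRSF10D, at 60.3 ± 0.530 against 63.9 ± 1.42 TPM (adjusted p = 0.446), being those of smallest p. Against No sEV they were DAD1 (adjusted p = 0.710) and API5 (adjusted p = 0.714). Of 10 necroptosis and pyroptosis genes, 7 were tested, with 5 higher and 2 lower and a median of 0.04, PYCARD (adjusted p = 0.561) and CASP1 (adjusted p = 0.783) leading; against No sEV, CASP1 (adjusted p = 0.673) and CYLD (adjusted p = 0.708) led. In TIS sEV vs No sEV the higher and lower counts of these lists, in the order above, were 10 and 3, 16 and 7, 14 and 7, and 6 and 1. In Cont sEV vs No sEV they were 6 and 7, 11 and 12, 12 and 9, and 5 and 2. Over all tested genes the higher and lower counts were 8278 and 5601 in TIS sEV vs Cont sEV. They were 9256 and 4623 in TIS sEV vs No sEV and 7838 and 6041 in Cont sEV vs No sEV. Higher means were thus the majority among all genes too. For Cont sEV vs No sEV the listed genes of smallest p were PRKCI and HSPA5, BNIP3L, TNFRSF10C and TNFRSF10D, and CYLD and PYCARD, with adjusted p-values of 0.807 to 0.911 (limma).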

How the data were processed

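RNA was sequenced from 9 libraries of recipient MDA-MB-231 cells. The values are gene-level TPM, 1 column per library, as deposited by the authors. The submitters' processing notes name Salmon 1.4.0, Trim Galore 0.6.6, FastQC 0.11.9, DESeq2 1.28.0 and the build GRCh38.p13, but no annotation release. TPM keeps no depth, so precision rests on the spread between libraries, and count models were not used.

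Libraries were grouped by their labels. IDs were named by Ensembl ID (99.51% matched) and placed with GENCODE 29. Genes reaching 1 TPM in 3 or more of 9 libraries were kept (13879), values taken as log2(TPM + 1), which understates changes of low genes, and all libraries fitted at once with limma 3.58.1 in R 4.3.3, with a variance trend, two-sided moderated tests and Benjamini-Hochberg adjustment at 0.05 over all genes. The fit was tested on simulated data. Alternatives were other pseudocounts, filters, scalings and weights, the replicate number as a block, and leaving out each library. Sharing of 31-base words was counted on both strands in GENCODE 29 transcripts. Promoters are from RefSeq. Figures were drawn with matplotlib 3.10.9.

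Named in full were PAWR, members that passed, the 4 of smallest p per comparison and the 2 of highest level per side; of the other lists, the 2 of smallest p in each and comparison, apart from some that are not reported here. The members, lists and sides were chosen with earlier results of these data known. The rescaled counts of groups that do not overlap, and all alternatives for BMF and BIRC3, were added after seeing the data.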

Additional observations from a re-analysis of the deposited data

How the results depend on the processing

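For PAWR in TIS sEV vs Cont sEV the log2 fold change stayed positive under all 20 alternatives, at 0.275 to 0.331 with 1 library left out. Settings that left both group means unchanged could not move it from 0.297. PAWR lost the call with no filter (0.297, adjusted p = 0.0953), median-ratio rescaling (0.276, adjusted p = 0.0637), library weights (0.288, adjusted p = 0.0628), no variance trend (0.297, adjusted p = 0.176) and only the libraries compared (0.297, adjusted p = 0.0658). It kept the call with a mean of at least 5 TPM (adjusted p = 0.0232), quantile normalization (adjusted p = 0.0421) and either smaller pseudocount. With the replicate block it was 0.297 (adjusted p = 0.0510), 0 members being called; same-numbered libraries did not deviate together (r from -0.06 to 0.14 over 9 pairs, 1 of them over 0.1), so the numbers were not taken as pairs. Members called in TIS sEV vs Cont sEV were 0 in each of those 6 settings and 0 to 1 with 1 library left out; the count stayed at 0 in both comparisons with No sEV.

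Calls over all genes in TIS sEV vs Cont sEV numbered 2 with no variance trend, 3 with only the libraries compared and 2 to 13 with 1 library left out. In TIS sEV vs No sEV they numbered 9 with no filter, 0 with no variance trend, 2 with only the libraries compared and 1 to 2 with 1 library left out, and in Cont sEV vs No sEV 7 with no filter, 1 with a mean of at least 5 TPM and 0 to 1 with 1 library left out. The median fold change of pro-death minus pro-survival members in TIS sEV vs No sEV, -0.0122, moved to -0.0284 without No sEV replicate 2 and to 0.0228 without TIS sEV replicate 2.

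Of 760 recomputed values of other member comparisons, none of them called, 28 changed sign. With median-ratio rescaling these were BCL2L1 in TIS sEV vs Cont sEV (-0.0193) and, in TIS sEV vs No sEV, BAK1 (-0.00957), CASP8 (-0.0203) and MCL1 (-0.00618). With quantile normalization they were BCL2L1 (-0.00974), BAK1 (-0.00226) and CASP8 (-0.0313), and without mitochondrially encoded genes BCL2L1 (-0.00951). With 1 library left out the ranges crossed 0 in TIS sEV vs Cont sEV for CYCS (-0.0564 to 0.0382) and BCL2L1 (-0.0197 to 0.0301), in TIS sEV vs No sEV for CASP8 (-0.0382 to 0.0743), CYCS (-0.0688 to 0.0259) and BCL2L1 (-0.0409 to 0.0120), and in Cont sEV vs No sEV for TRADD (-0.000255 to 0.0770), BCL2L1 (-0.0430 to 0.00515), MCL1 (-0.0482 to 2.22e-05), BMF (-0.0531 to 0.118) and BIRC3 (-0.0194 to 0.0674). The causes were not tested.

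The read depth is unknown. The 95% confidence interval of a log2 fold change, unadjusted, reached a median of 0.15 to each side over the members. Smaller differences were thus mostly not told from 0 with 3 libraries a group, even before adjustment. A call over all genes needed more, as CASP6 at 0.22 and BMF at -0.23 in TIS sEV vs Cont sEV did not pass.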
